A study of Mus musculus with 10 samples.

Results

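The genes described here encode 6 ligands of immune checkpoint and costimulatory receptors, namely Cd274, Pdcd1lg2, Cd276, Vtcn1, Cd80 and Cd86. Their regions were every called ATAC-seq interval that overlapped one of these genes (GENCODE M21, mm10) extended by 20 kb on each side. Overlapping intervals of the 5 deposited lists were joined, which left 83 regions at the 6 genes, of 211107 in the whole genome. Cd274 had 10 of them, Pdcd1lg2 17, Cd276 15, Vtcn1 21, Cd80 14 and Cd86 7. A single region between Cd274 and Pdcd1lg2 belonged to both, so 26 regions made up their common neighbourhood on chromosome 19.

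The libraries came from Myc-CaP, a mouse prostate cancer cell line of the FVB strain that is driven by a Myc transgene. Cells were sampled after 48 h without drug (Ctrl), with 2 µM oxaliplatin (Oxali), with 2 µM cisplatin (Cispl), with interferon-γ (IFNγ, labelled 1000 pg without a volume) or with 2 µM oxaliplatin and 1000 pg IFNγ (Oxali + IFNγ). All groups were cultures of the same line, with no tumour or immune cells added. Each group had 2 libraries, which the authors pooled before they called peaks, so each condition is 1 list with no replicate check, and intervals below cover counting error only.

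PD-L1, the product of Cd274, and PD-L2, the product of Pdcd1lg2, bind the inhibitory receptor PD-1 on T cells. B7-H3 (Cd276) and B7-H4 (Vtcn1) belong to the same family, and B7-H4 restrains T cells through a receptor that is not settled. CD80 and CD86 are the classical costimulatory ligands of antigen-presenting cells and bind CD28 and CTLA-4. IFNγ is a known inducer of Cd274 in many cell types, acting through JAK kinases and IRF1, while oxaliplatin and cisplatin are platinum drugs that crosslink DNA.

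The following windows of at most 201 bases lie around the summits of 8 regions, chosen because the comparisons below turn on them or because they hold letters bound by factors of the IFNγ or NF-κB pathway. They are the RefSeq GRCm38 (mm10) letters on the strand of the named gene, 5′ to 3′, and not the FVB sequence of the line, with untranslated exon bases left off. Capitals mark matches to the IRF core (a pair of GAAA letters 2 bases apart), the GAS element TTCNNNGAA, the NF-κB consensus or the AP-1 element TGANTCA on either strand. Distances are from the 5′ end of the gene to the summit.
Cd274 start site, chr19:29367312-29367454, plus strand: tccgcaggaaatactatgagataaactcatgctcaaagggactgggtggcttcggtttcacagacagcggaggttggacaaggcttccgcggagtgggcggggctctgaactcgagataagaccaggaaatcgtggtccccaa
Cd274 intron, 2.92 kb, chr19:29370272-29370472, plus strand: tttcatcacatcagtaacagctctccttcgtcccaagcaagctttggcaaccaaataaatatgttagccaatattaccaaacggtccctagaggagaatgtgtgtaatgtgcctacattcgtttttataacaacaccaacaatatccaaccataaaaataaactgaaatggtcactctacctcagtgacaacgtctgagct
Cd274 intron, 4.52 kb, chr19:29371874-29372074, plus strand: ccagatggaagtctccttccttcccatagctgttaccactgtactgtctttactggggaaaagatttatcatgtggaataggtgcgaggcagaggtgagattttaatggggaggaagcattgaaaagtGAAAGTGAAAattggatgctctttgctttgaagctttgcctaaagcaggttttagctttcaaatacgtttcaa
Pdcd1lg2 intron, 7.15 kb, chr19:29417965-29418165, plus strand: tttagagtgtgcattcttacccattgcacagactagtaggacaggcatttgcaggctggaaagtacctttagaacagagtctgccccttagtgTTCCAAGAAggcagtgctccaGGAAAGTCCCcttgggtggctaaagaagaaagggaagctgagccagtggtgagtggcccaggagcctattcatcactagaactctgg
Vtcn1 intron, 67.7 kb, chr3:100893041-100893241, plus strand: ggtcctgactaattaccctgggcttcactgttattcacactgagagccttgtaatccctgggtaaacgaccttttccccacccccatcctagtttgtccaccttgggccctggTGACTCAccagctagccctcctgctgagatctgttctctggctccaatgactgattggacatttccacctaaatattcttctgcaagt
Cd80 internal start site, chr16:38458764-38458932, plus strand: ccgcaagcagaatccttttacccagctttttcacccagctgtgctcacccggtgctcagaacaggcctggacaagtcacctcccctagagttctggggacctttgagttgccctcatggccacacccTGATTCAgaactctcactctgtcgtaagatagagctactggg
Cd86 upstream region, chr16:36681963-36682163, minus strand: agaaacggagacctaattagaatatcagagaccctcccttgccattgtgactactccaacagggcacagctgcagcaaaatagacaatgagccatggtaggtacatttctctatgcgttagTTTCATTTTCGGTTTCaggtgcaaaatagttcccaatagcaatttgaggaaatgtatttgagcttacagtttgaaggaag
Cd86 downstream region, chr16:36598332-36598532, minus strand: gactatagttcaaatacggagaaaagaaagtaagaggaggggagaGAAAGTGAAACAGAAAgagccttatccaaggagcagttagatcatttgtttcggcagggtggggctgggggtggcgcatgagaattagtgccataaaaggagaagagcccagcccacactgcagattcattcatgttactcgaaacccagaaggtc

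The level of a region is its highest summit pileup divided by the genome background of its list, so a level of 1 is the background and lists of unequal depth can be set side by side. That background was lowest in IFNγ at 9.62 overlapping fragments and highest in Cispl at 13.8, which makes weak regions least certain in the IFNγ list. A region at genome background had to reach a level of 1.70 to 1.89, depending on the list, to be deposited at all. The windows of the 6 genes add up to 509 kb. Called intervals covered 23.5 kb of them in Ctrl, 23.7 kb in IFNγ, 31.7 kb in Oxali, 34.4 kb in Cispl and 35.3 kb in Oxali + IFNγ, and values without names below keep this order. Over the whole genome the lists had 58.7 and 58.6 Mb covered in Ctrl and IFNγ and up to 87.1 Mb in the lists with platinum. Of the 83 regions, 47 were called in Ctrl, 51 in IFNγ, 65 in Oxali, 68 in Cispl and 66 in Oxali + IFNγ. The regions of each list over the whole genome numbered 122298, 118949, 158621, 174048 and 174709, so the platinum lists also held more regions genome-wide. Regions called in all 5 lists numbered 42, or 50.6%, beside 40.4% of all regions. The median level of the called intervals was 5.52 in Ctrl, 5.30 in IFNγ, 5.94 in Oxali, 6.58 in Cispl and 6.97 in Oxali + IFNγ, beside 7.17, 6.76, 7.01, 6.25 and 6.28 over all regions.

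**Figure D1:**
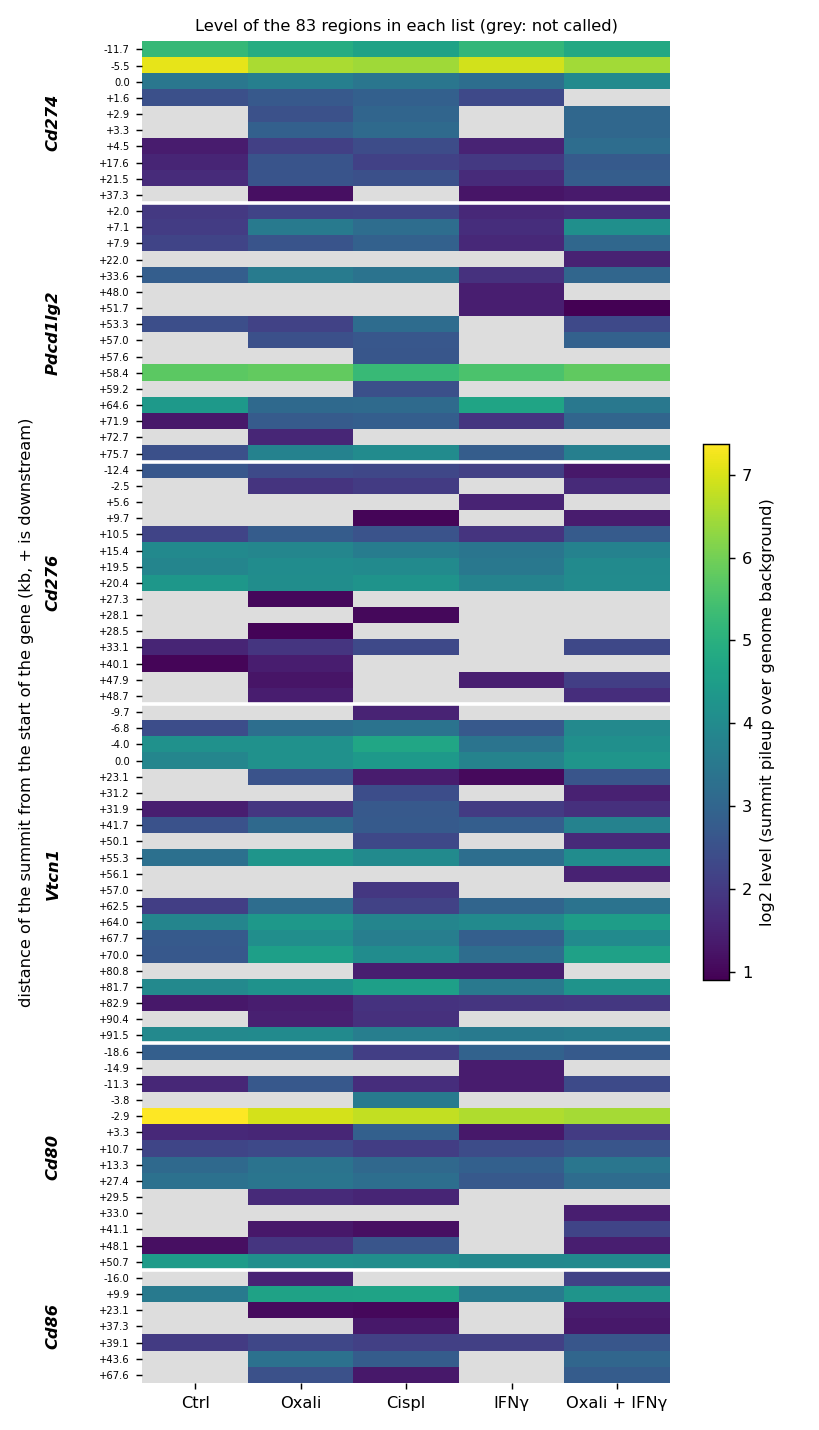
Colour gives the log2 level of each of the 83 regions (rows, ordered by gene and by distance of the summit from the 5′ end in kb) in each of the 5 lists (columns), and grey marks a region that was not called. The brightest rows are the region 5.54 kb upstream of Cd274 and the one 2.86 kb upstream of Cd80, and most grey cells lie in the Ctrl and IFNγ columns.

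A region was counted as gained when it was called at a q-value of at most 0.01 with treatment and not called in Ctrl, and as lost in the mirror case. A region called in both lists was counted as higher or lower when its level ratio was at least 1.5-fold and the 95% interval of the ratio excluded 1. With Oxali, 15 of 65 regions were gained (23.1%, beside 28.4% of all regions) and 0 were lost (beside 6.1%), and each of the 6 genes had a gained region, as did 70.8% of protein-coding genes. With Cispl, 21 of 69 were gained (30.4%, beside 34.4%) and 0 were lost (beside 3.82%), again with a gained region at all 6 genes, beside 78.3% of genes. With IFNγ, 7 of 55 were gained (12.7%, beside 9.65%) and 3 were lost (5.45%, beside 13.1%), and 5 genes had a gained region, beside 39.4%. With Oxali + IFNγ, 20 of 68 were gained (29.4%, beside 34.9%) and 1 was lost (1.47%, beside 4.68%), with a gained region at 6 genes, beside 77.1%. The gained shares at the ligand genes therefore lay near those of the genome for each treatment, and gains were common everywhere with the platinum drugs.

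Among regions called in both lists, 16 of 47 were higher with Oxali (34.0%, beside 28.4%) and 2 were lower (4.26%, beside 7.43%). With Cispl, 17 of 46 were higher (37.0%, beside 24.9%) and 5 lower (10.9%, beside 11.8%). With IFNγ, 1 of 43 was higher (2.33%, beside 3.46%) and 4 were lower (9.30%, beside 17.6%). With Oxali + IFNγ, 18 of 45 were higher (40.0%, beside 29.8%) and 4 lower (8.89%, beside 14%). All 4 counts share the Ctrl list. The median ratio at the 6 genes was 0.904 with IFNγ, 1.21 with Oxali, 1.29 with Cispl and 1.29 with the combination, beside 0.854, 1.14, 1.09 and 1.13 over all regions. The ratio depended on the level in Ctrl, and regions under a Ctrl level of 10, which made up 31 of the 47 shared with Oxali, had a median of 1.05, 1.45, 1.54 and 1.65 at the 6 genes, beside 0.946, 1.38, 1.37 and 1.41 in the genome. Scaling by the regions called in every list, in place of the genome background, moved the median log2 ratio over all regions from 0.19 to 0.014 with Oxali, from 0.13 to 0.072 with Cispl, from -0.23 to -0.013 with IFNγ and from 0.18 to 0.039 with Oxali + IFNγ. On that scale the members counted as higher and lower were 13 and 2 with Oxali, 16 and 5 with Cispl, and 14 and 5 with Oxali + IFNγ. For IFNγ the split turned, from 1 higher and 4 lower to 5 higher and 2 lower, so no direction is given for IFNγ at the 6 genes. Shares of all regions past the limit on that scale are not reported here, so these counts are not set against the genome.

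**Figure D2:**
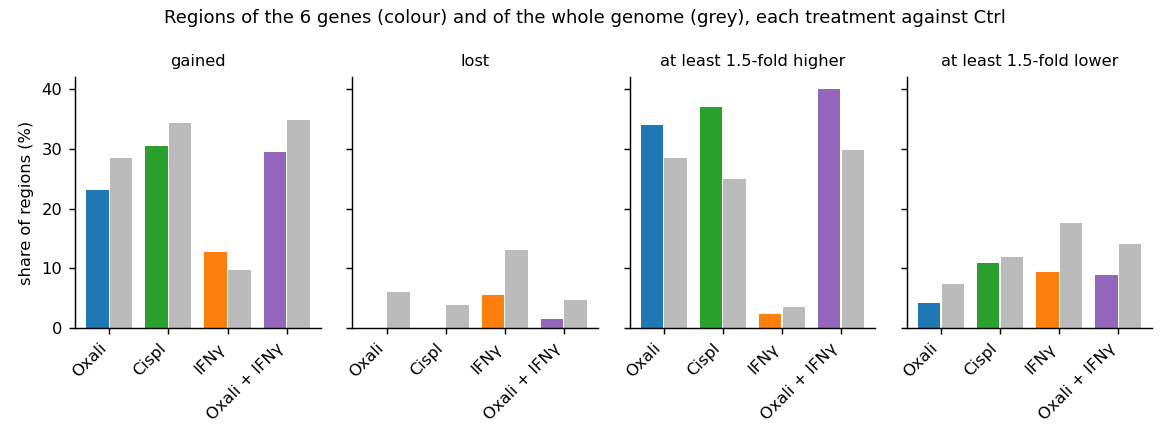
Bars give the share in percent of regions gained, lost, at least 1.5-fold higher or at least 1.5-fold lower against Ctrl, for regions of the 6 genes (coloured by treatment) and for all regions of the genome (grey). In the lists with a platinum drug the coloured bars lie below the grey ones for gained regions (23.1% to 30.4%) and above them for regions at least 1.5-fold higher (34.0% to 40.0%).

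Cd274 (chr19:29367455-29388095, plus strand) shares its start site with Plgrkt, a plasminogen receptor gene transcribed in the other direction, and 1 region spanned both starts (chr19:29366958-29367851). Its level was 11.1 in Ctrl, 9.35 in IFNγ, 13.0 in Oxali, 10.8 in Cispl and 16.0 in Oxali + IFNγ. Oxali + IFNγ was the highest of the lists and IFNγ the lowest. With scaling by shared regions Cispl was the lowest, at a ratio to Ctrl of 0.94 beside 0.98 for IFNγ. With the genome background, neither Oxali (ratio to Ctrl 1.16, interval 0.92 to 1.48) nor Cispl (0.97, 0.77 to 1.24) nor IFNγ (0.84, 0.64 to 1.11) differed from Ctrl beyond counting error. The ratio of Oxali + IFNγ to Ctrl was 1.44 (1.15 to 1.80), under the 1.5-fold limit, and its ratio to IFNγ was 1.71 (1.33 to 2.21). The latter was 1.34 (1.04 to 1.73) with scaling by shared regions. Set over its own local background, the summit was lower in Oxali + IFNγ than in Ctrl (log2 ratio -0.33), with more reads around it, as described next.

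**Figure D3:**
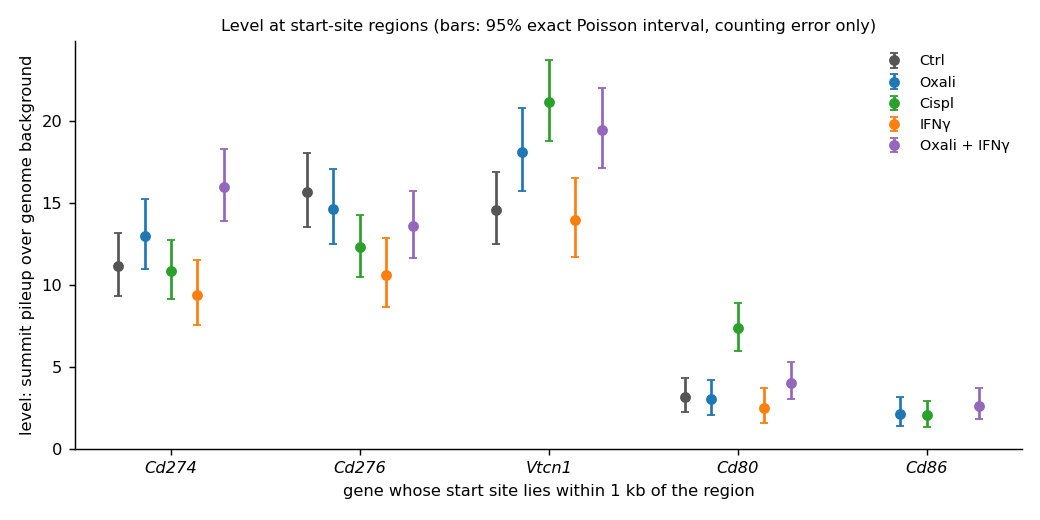
Points give the level at the regions within 1 kb of a start site of Cd274, Cd276, Vtcn1, Cd80 and Cd86 in each list, and bars are 95% exact Poisson intervals of the pileup. Pdcd1lg2 had no such region, Cd86 had one in 3 lists at a level of at most 2.63, and the Cispl point of Cd80 at 7.34 lies above the other lists of that gene.

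For a summit whose surroundings exceed the genome background, the local background in the files is a count of reads in the 10 kb around it, and this count was recovered as a whole number. Around the Cd274 start site it was 1212 reads in Ctrl, 980 in IFNγ, 1556 in Oxali, 2067 in Cispl and 2373 in Oxali + IFNγ. Over the genome background of each list, the density was 1.50 in Ctrl, 1.53 in IFNγ, 2.07 in Oxali, 2.25 in Cispl and 2.76 in Oxali + IFNγ. These 10 kb are centred on the start site and reach over Plgrkt as well as Cd274. The ratio to Ctrl was 1.02 (0.94 to 1.11) with IFNγ, 1.38 (1.28 to 1.49) with Oxali, 1.50 (1.40 to 1.62) with Cispl and 1.84 (1.72 to 1.98) with the combination. Of comparable regions in the genome, 37.3%, 18.3%, 8.04% and 5.34% had a ratio to Ctrl at or above these. Scaled by shared regions the ratios were 1.18, 1.23, 1.45 and 1.67. The 10 kb include the called regions themselves, so the count does not tell reads at summits from reads between them.

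Around the intronic summit 4.52 kb into Cd274, whose 10 kb reach less than 1 kb upstream of the start, the density was 1.19 in Ctrl, 1.24 in IFNγ, 1.72 in Oxali, 1.85 in Cispl and 2.40 in Oxali + IFNγ. The 10 kb count was at least 1.5-fold higher than in Ctrl at 3 of 20 comparable regions of the 6 genes with Oxali (beside 12.3% of comparable regions in the genome), at 5 of 20 with Cispl (beside 8.18%), at 0 of 20 with IFNγ (beside 0.43%) and at 5 of 19 with Oxali + IFNγ (beside 15.3%). Windows of neighbouring summits overlap, so these regions are not separate observations. All of the regions counted lie at Cd274 or at the 3′ end of Vtcn1. The counts rest on the genome background. With scaling by shared regions the Cispl ratio at the Cd274 start site was under 1.5-fold, as given above, so the Cispl count depends on the scale. Between Oxali + IFNγ and Oxali, the ratio was 1.33 (1.25 to 1.42) at the Cd274 start site and 1.40 (1.31 to 1.50) at 4.52 kb. It was no lower in the neighbouring gene Pdcd1lg2, at 1.38 (1.26 to 1.51) around 7.15 kb and 1.40 (1.28 to 1.54) around 7.92 kb. No region of the 6 genes was past 1.5-fold between these lists (0 of 30, beside 0.065% of the genome), and 0.566% of 69281 comparable regions had a ratio at or above that of the Cd274 start site. The median of those regions was 1.01. The 10 kb count was chosen after its values were seen.

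**Figure D4:**
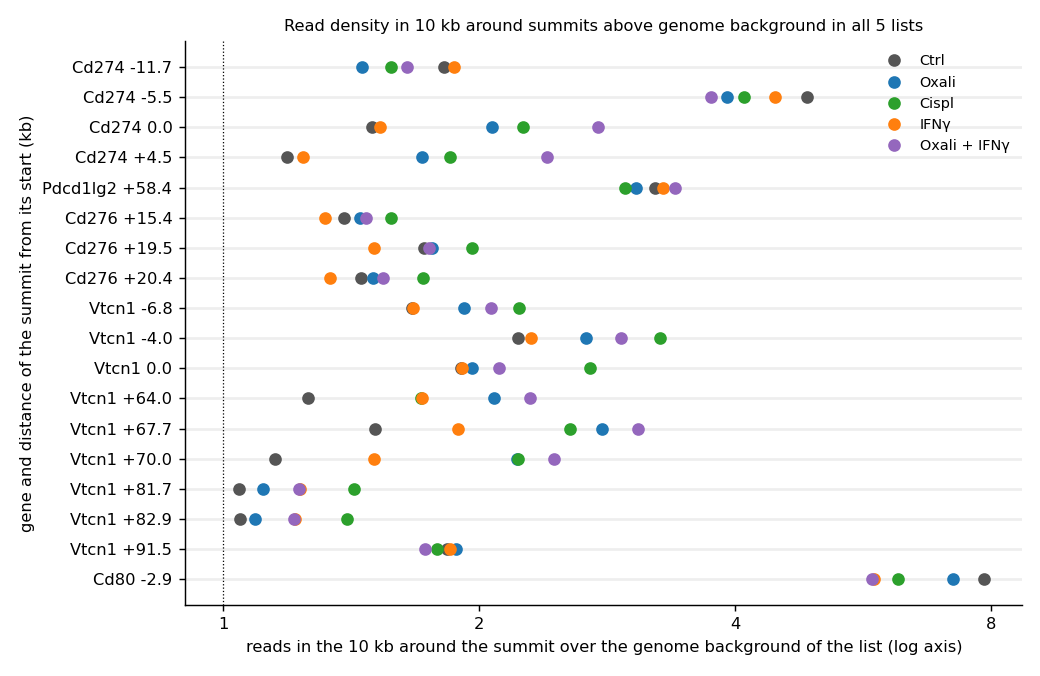
Points give the number of reads in the 10 kb around a summit over the genome background of the list, on a log axis, for the regions of the 6 genes that exceed the background in all 5 lists. Rows are named by gene and by distance of the summit from its 5′ end in kb. At the Cd274 start site and 4.52 kb into the gene, Ctrl and IFNγ lie together at 1.19 to 1.53 and Oxali + IFNγ lies farthest to the right at 2.40 to 2.76.

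Within the Cd274 body, the region at 2.92 kb (chr19:29370225-29370481) was absent from Ctrl and IFNγ and had a level of 5.68 in Oxali, 7.99 in Cispl and 8.29 in Oxali + IFNγ. A neighbour at 3.29 kb (chr19:29370643-29370860), called in the same lists, reached 7.36, 8.72 and 8.29, and all 201 bases around its summit are repeat-masked. The region at 4.52 kb (chr19:29371691-29372741), which holds the IRF core in its window, had a level of 2.64 in Ctrl, 2.91 in IFNγ, 4.35 in Oxali, 5.30 in Cispl and 9.22 in Oxali + IFNγ. The window lies around the Oxali + IFNγ summit. The IFNγ and Cispl summits lay outside it, at -0.188 and -0.149 kb, so their levels belong to the same region but not to the IRF core. Here Oxali + IFNγ exceeded every other list. Its ratio was 3.50 (2.35 to 5.34) to Ctrl, 2.12 (1.51 to 3.02) to Oxali and 3.17 (2.09 to 4.97) to IFNγ. The ratio of IFNγ to Ctrl was 1.10 (0.64 to 1.89), and that of Oxali to Ctrl was 1.65, or 1.46 with scaling by shared regions, which is under the limit.

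The region at 1.62 kb (chr19:29368957-29369176), with an AP-1 match, had a level of 5.52 in Ctrl, 6.56 in Oxali, 7.34 in Cispl and 4.99 in IFNγ and was the only one lost in Oxali + IFNγ. It stood over a local density of 1.35 in Ctrl, the density around neighbouring summits of the Oxali + IFNγ list was 2.40 to 2.76, and whether that density kept a summit from being called was not tested. Near the 3′ end, the region at 17.6 kb, next to the start of the antisense gene AC119228.1, went from 2.97 in Ctrl to 3.95 in IFNγ, 5.94 in Oxali, 4.43 in Cispl and 6.59 in Oxali + IFNγ. The region at 21.5 kb, just past the gene, read 3.21, 3.22, 5.94, 5.59 and 7.05 in the same order. Both lay where the 10 kb count did not exceed the genome background in any list. Between the genes, at 37.3 kb, a weak region was called in Oxali at 2.22, in IFNγ at 2.39 and in Oxali + IFNγ at 2.56, close to the calling limit.

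The neighbouring gene Plgrkt behaved otherwise. A second start-site region of Plgrkt, 5.54 kb upstream of Cd274 (chr19:29361400-29362492), was the strongest of the neighbourhood, at 142 in Ctrl, 121 in IFNγ, 93.2 in Oxali, 87.3 in Cispl and 88.3 in Oxali + IFNγ. The ratio to Ctrl was 0.86 with IFNγ, 0.66 with Oxali, 0.62 with Cispl and 0.62 with the combination. In the whole genome, regions with a Ctrl level over 30 had a median ratio of 0.748, 0.814, 0.693 and 0.690 in the same order, so lower levels were usual for regions this strong. A region in a Plgrkt intron, 11.7 kb upstream of Cd274, had levels of 37.4, 36.1, 29.8, 24.6 and 27.9 in the order of the lists.

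**Figure D5:**
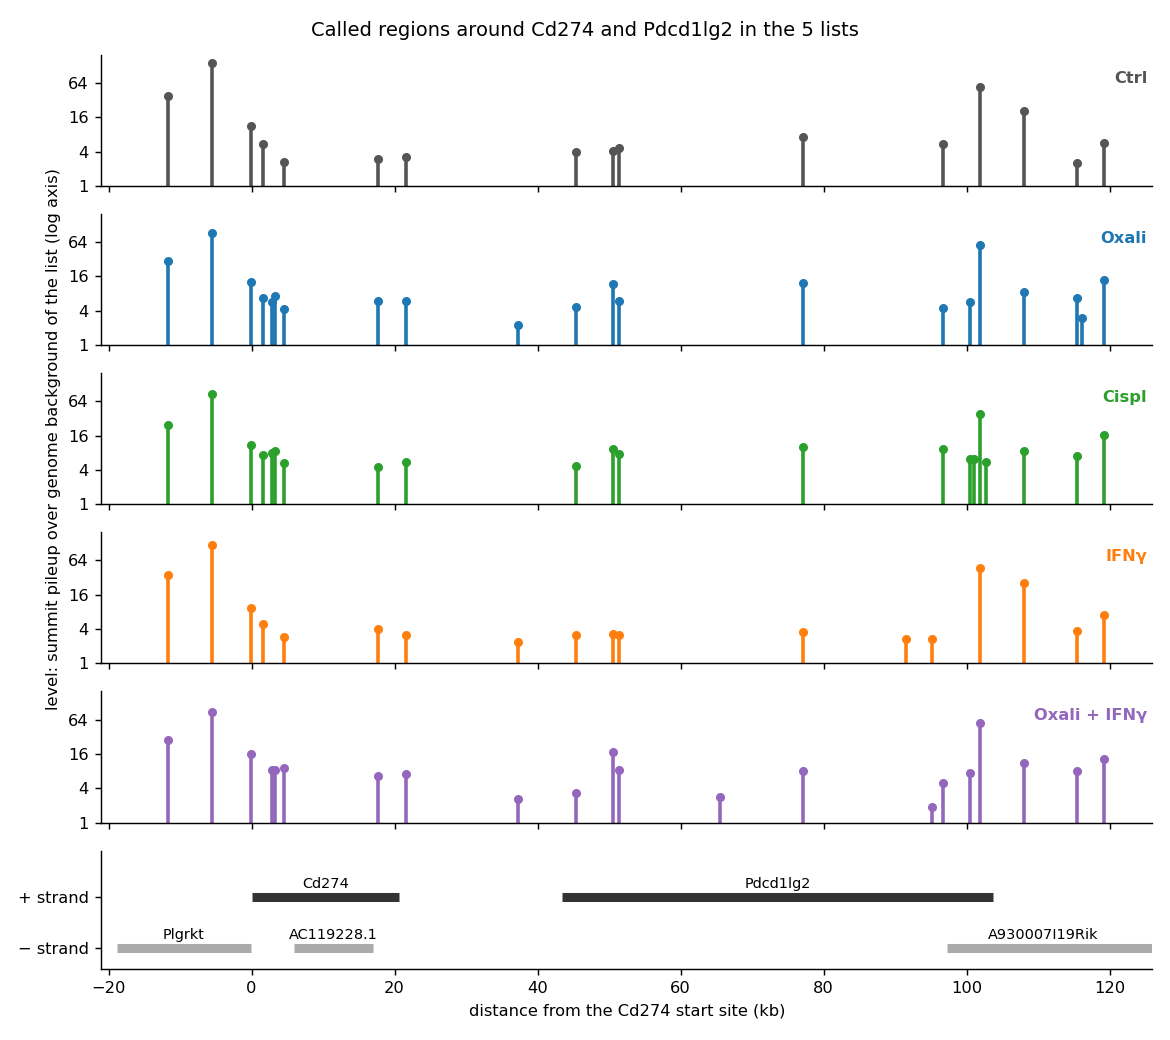
Each upper panel shows 1 list, with a line up to the level of each called region (log axis) at its distance in kb from the Cd274 start site, and the lowest panel shows the gene bodies by strand. The pair of regions 2.92 and 3.29 kb into Cd274 appears in the Oxali, Cispl and Oxali + IFNγ panels and is absent from Ctrl and IFNγ.

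Pdcd1lg2 (chr19:29410919-29471161, plus strand), the gene of PD-L2, had no region within 1 kb of either annotated start, the nearest being 1634 bp away. That region read 3.95, 3.12, 4.61, 4.72 and 3.33, less than 1.5-fold from Ctrl with every treatment. The intronic region at 7.15 kb (chr19:29417852-29418574), which holds a GAS match and an NF-κB match, had a level of 4.12 in Ctrl, 3.33 in IFNγ, 11.5 in Oxali, 9.30 in Cispl and 17.3 in Oxali + IFNγ. The 3 lists with a platinum drug were all above both others. The ratio to Ctrl was 0.81 (0.50 to 1.28) with IFNγ, 2.80 (2.01 to 3.96) with Oxali, 2.26 (1.62 to 3.20) with Cispl and 4.20 (3.08 to 5.82) with the combination. Oxali + IFNγ over Oxali was 1.50 (1.20 to 1.87), just inside the limit, and 1.53 with scaling by shared regions. The density in the 10 kb around it, over the genome background, was 1.06 in Oxali, 1.17 in Cispl and 1.46 in Oxali + IFNγ, and did not exceed that background in Ctrl or IFNγ. The next region, at 7.92 kb, read 4.70, 3.12, 5.94, 7.48 and 8.37 in the order of the lists.

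The other regions of Pdcd1lg2 did not move as 1 block. At 33.6 kb the level was 7.08 in Ctrl, 3.53 in IFNγ, 12.1 in Oxali, 10.2 in Cispl and 8.21 in Oxali + IFNγ, and the ratio of IFNγ to Ctrl was 0.50 (0.33 to 0.75). The strongest region of the gene, at 58.4 kb in its last part, differed from Ctrl by less than 1.5-fold in every list, at 53.6, 46.5, 56.5, 38.4 and 55.3. Beyond the 3′ end, in the antisense gene A930007I19Rik, the region at 64.6 kb had levels of 20.8 in Ctrl, 25.7 in IFNγ, 8.61 in Oxali, 8.72 in Cispl and 11.2 in Oxali + IFNγ. It was thus lower in each platinum list, with a ratio to Ctrl of 0.41 (0.32 to 0.53), 0.42 (0.34 to 0.52) and 0.54 (0.44 to 0.67). Further on, the region at 75.7 kb went the other way, from 5.60 in Ctrl to 6.96 in IFNγ, 13.7 in Oxali, 16.2 in Cispl and 12.9 in Oxali + IFNγ. The region at 71.9 kb, between them, read 2.47, 3.74, 6.74, 7.12 and 7.98. Of the weak regions of this gene, 1 was called in Oxali + IFNγ only (22.0 kb, level 2.87), 1 in Oxali only (72.7 kb, 3.02), 1 in IFNγ only (48.0 kb, 2.70), 1 in IFNγ and Oxali + IFNγ (51.7 kb, 2.70 and 1.86) and 2 in Cispl only (57.6 and 59.2 kb, 6.18 and 5.59). A region at 57.0 kb was called in Oxali at 5.59, in Cispl at 6.32 and in Oxali + IFNγ at 7.44. The region at 53.3 kb was lost with IFNγ, read 5.44 in Ctrl and was higher in Cispl at 9.15.

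Vtcn1 (chr3:100825459-100896922, plus strand), the gene of B7-H4, had a start-site region with levels of 14.6 in Ctrl, 13.9 in IFNγ, 18.1 in Oxali, 21.1 in Cispl and 19.4 in Oxali + IFNγ. No treatment took it past 1.5-fold, the highest ratio to Ctrl being 1.45 (1.20 to 1.76) with Cispl. Larger differences lay at the other end of the gene. In the untranslated part of its last exon, 70.0 kb from the start, the level was 6.43 in Ctrl, 9.25 in IFNγ, 23.5 in Oxali, 16.6 in Cispl and 24.3 in Oxali + IFNγ. The ratio to Ctrl was 3.79 (2.95 to 4.92) with Oxali + IFNγ, 3.66 (2.83 to 4.77) with Oxali and 2.58 (1.99 to 3.38) with Cispl. Regions at 67.7 kb (6.67, 7.28, 17.1, 12.8 and 16.0 in the order of the lists) and at 55.3 kb (9.80, 9.46, 19.3, 15.8 and 16.5) showed the same order of platinum over other lists. At 55.3 kb the Ctrl and Cispl summits lay at -0.281 and -0.279 kb from that of Oxali. Around the summit in the last exon, the 10 kb held 932 reads in Ctrl, 964 in IFNγ, 1666 in Oxali, 2041 in Cispl and 2109 in Oxali + IFNγ. These are densities of 1.15, 1.50, 2.22, 2.22 and 2.45, and the 10 kb include both this region and the one at 67.7 kb.

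The region at 62.5 kb of Vtcn1 was the only one of the 83 counted as higher with IFNγ (4 more were with scaling by shared regions), at 4.28 in Ctrl, 8.11 in IFNγ, 9.31 in Oxali, 4.50 in Cispl and 10.2 in Oxali + IFNγ. The ratio of IFNγ to Ctrl was 1.89 (1.32 to 2.74), while that of Cispl to Oxali was 0.48 (0.35 to 0.67). Within this region the Ctrl and IFNγ summits lay at -0.357 and -0.375 kb from that of Oxali + IFNγ. Upstream, the region 6.80 kb before the start read 5.35, 6.55, 9.49, 10.2 and 15.3, and Oxali + IFNγ exceeded Oxali there by 1.62 (1.27 to 2.06). The region 3.98 kb before the start was lower with IFNγ, at 10.4 beside 18.1 in Ctrl, and 26.6 in Cispl. Inside the gene, the region at 41.7 kb read 5.77 in Ctrl, 7.07 in IFNγ, 8.69 in Oxali, 6.68 in Cispl and 13.6 in Oxali + IFNγ, and that at 64.0 kb read 14.3, 15.9, 20.5, 14.3 and 22.7. The region at 31.9 kb was higher with Cispl alone on this scale, at 6.47 beside 2.72 in Ctrl, as was that at 81.7 kb, at 23.3 beside 15.4 (ratio 1.51, or 1.46 and inside the limit with scaling by shared regions). Regions of Vtcn1 that Ctrl lacked were weaker. One at 23.1 kb reached 2.08 in IFNγ, 5.86 in Oxali, 2.62 in Cispl and 6.12 in Oxali + IFNγ, and the other 7 did not exceed 5.38 in any list. Of these, the regions 9.73 kb upstream and at 57.0 kb were called in Cispl only (2.91 and 3.85), and that at 56.1 kb in Oxali + IFNγ only (2.87). Those at 31.2 and 50.1 kb were called in Cispl (5.38 and 4.94) and Oxali + IFNγ (2.79 and 3.18). The remaining ones lay beyond the gene, at 80.8 kb in IFNγ (2.70) and Cispl (2.69), and at 90.4 kb in Oxali (2.75) and Cispl (3.49).

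Cd276 (chr9:58524298-58555437, minus strand), the gene of B7-H3, showed few differences between lists. No region lay within 1 kb of its 5′ end, the nearest being 2374 bp away. The region next to its internal starts, 15.4 kb into the gene, read 15.7 in Ctrl, 10.6 in IFNγ, 14.6 in Oxali, 12.3 in Cispl and 13.6 in Oxali + IFNγ. The regions at 19.5 and 20.45 kb lay between 11.2 and 20.1 in all lists, and none of the 3 was past 1.5-fold in any treatment. With Oxali, 0 of 7 shared regions of the gene were higher or lower, with Cispl 1 of 6 was higher, and with Oxali + IFNγ 1 of 6 was higher and 1 lower. The latter, 12.4 kb upstream, went from 6.26 in Ctrl to 4.37, 5.06, 4.87 and 2.48. The higher one, 33.1 kb from the start and past the 3′ end, read 2.97 in Ctrl, 3.73 in Oxali, 5.01 in Cispl and 4.88 in Oxali + IFNγ. The last ratio to Ctrl was 1.65, or 1.49 and inside the limit with scaling by shared regions. The region was lost with IFNγ. The regions of Cd276 that Ctrl lacked were weak in every list, at 1.95 to 4.26, the strongest being one at 47.9 kb with 2.40 in Oxali, 2.70 in IFNγ and 4.26 in Oxali + IFNγ. The one 2.47 kb upstream read 3.64 in Oxali, 4.07 in Cispl and 3.18 in Oxali + IFNγ, and that at 48.7 kb 2.66 in Oxali and 3.33 in Oxali + IFNγ. At 9.70 kb the level was 1.96 in Cispl and 2.63 in Oxali + IFNγ. Regions of 1 list lay at 5.59 kb in IFNγ (2.91), at 27.3 and 28.5 kb in Oxali (2.04 and 1.95) and at 28.1 kb in Cispl (2.03).

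Cd80 (chr16:38455561-38496335, plus strand) had no region at its 5′ end either, the nearest being 2256 bp away. A region at its internal starts (chr16:38458550-38459193) read 3.13 in Ctrl, 2.49 in IFNγ, 3.02 in Oxali, 7.34 in Cispl and 4.03 in Oxali + IFNγ. It was the only start-site region of the 6 genes past 1.5-fold against Ctrl, and this with Cispl, at 2.34 (1.60 to 3.50) over Ctrl and 2.43 (1.63 to 3.70) over Oxali. The intronic regions at 10.7, 13.3 and 27.4 kb stayed between 4.21 and 10.9 in all lists, and the last of them was lower with IFNγ, at 6.55 beside 9.97 in Ctrl (ratio 0.66, or 0.76 and inside the limit with scaling by shared regions). A region 11.3 kb upstream, in the untranslated part of Adprh, was higher with Oxali (6.39) and Oxali + IFNγ (5.11) than in Ctrl (3.05), and one at 48.1 kb, inside Timmdc1, was higher with Cispl (6.10) and Oxali (3.73) than in Ctrl (2.22) and lost with IFNγ. For Oxali that ratio was 1.68, or 1.49 and inside the limit with scaling by shared regions. Of the 5 regions that Ctrl lacked, 4 did not exceed 4.65, the level in Oxali + IFNγ of the one at 41.1 kb, which read 2.48 in Oxali and 2.25 in Cispl. The region at 29.5 kb read 3.19 in Oxali and 2.98 in Cispl, that 14.9 kb upstream 2.60 in IFNγ only, and that at 33.0 kb 2.71 in Oxali + IFNγ only. The fifth, at 11.9 in Cispl only, adjoins the strongest region of the window. That region, 2.86 kb upstream at the starts of Adprh and D930030I03Rik, read 166 in Ctrl, 97.9 in IFNγ, 125 in Oxali, 110 in Cispl and 90.7 in Oxali + IFNγ, with ratios to Ctrl of 0.59, 0.75, 0.66 and 0.55. With scaling by shared regions the first of these was 0.68 and inside the limit, while those of Cispl and Oxali + IFNγ stayed lower, at 0.64 and 0.50. Lower levels were usual for regions over a Ctrl level of 30, as given above. A region 18.6 kb upstream was lower with Cispl, at 4.29 beside 7.25 in Ctrl.

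Cd86 (chr16:36603869-36666081, minus strand) had 7 regions, of which 2 were called in Ctrl, 2 in IFNγ, 6 in Oxali, 6 in Cispl and 7 in Oxali + IFNγ, with more regions in the platinum lists genome-wide as well. Its strongest region, in an intron 9.94 kb from the 5′ end (chr16:36655286-36656426), read 11.6 in Ctrl, 12.0 in IFNγ, 24.8 in Oxali, 25.2 in Cispl and 19.1 in Oxali + IFNγ. The ratio to Ctrl was 1.03 (0.80 to 1.33) with IFNγ, 2.13 (1.73 to 2.63) with Oxali, 2.17 (1.78 to 2.66) with Cispl and 1.65 (1.33 to 2.04) with the combination, the last of which was 1.50 and inside the limit with scaling by shared regions. At 43.6 kb a region absent from Ctrl and IFNγ reached 9.85 in Oxali, 6.90 in Cispl and 8.21 in Oxali + IFNγ. A region 67.6 kb from the 5′ end, downstream of the gene at the start of the noncoding RNA Gm49662, was absent from the same lists and read 5.68, 2.47 and 6.90. The region 16.0 kb upstream was called in Oxali at 2.93 and in Oxali + IFNγ at 4.49. The windows of the latter regions each hold 2 overlapping IRF cores, as printed above. An intronic region at 39.1 kb was higher in Oxali + IFNγ, at 6.20 beside 4.04 in Ctrl (ratio 1.54, or 1.39 and inside the limit with scaling by shared regions), and a weak one at 37.3 kb was called in Cispl at 2.47 and in Oxali + IFNγ at 2.48. No region lay within 1 kb of the 5′ end, and the one at an internal start, with an NF-κB match, read 2.13 in Oxali, 2.03 in Cispl and 2.63 in Oxali + IFNγ.

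The combination was set against each of its agents. Of 58 regions called in both, 5 were higher in Oxali + IFNγ than in Oxali (8.62%, beside 3.31% of all regions) and 1 was lower (1.72%, beside 4.17%). The 5 were the region at 4.52 kb of Cd274, those 6.80 kb upstream and 41.7 kb downstream of the Vtcn1 start, and weak regions of Cd276 at 47.9 kb and of Cd80 at 41.1 kb. Of 46 regions called in both, 20 were higher in Oxali + IFNγ than in IFNγ (43.5%, beside 35.4%) and 2 were lower (4.35%, beside 5.19%). With scaling by shared regions the counts higher and lower were 7 and 1 against Oxali, and 11 and 5 against IFNγ. The shares of all regions on that scale are not reported here, nor are they for the platinum drugs below. The platinum drugs, given at the same dose and time, were compared over 57 regions, of which 4 were higher in Cispl than in Oxali (7.02%, beside 6.4%) and 5 were lower (8.77%, beside 11.7%), or 6 and 5 with scaling by shared regions. Cisplatin and oxaliplatin differ in the ligands around platinum, with a diaminocyclohexane and oxalate in oxaliplatin. The regions higher in Cispl were at 53.3 kb of Pdcd1lg2, at 31.9 kb of Vtcn1, and at the internal start and 48.1 kb of Cd80. At the Cd274 start site the ratio of Cispl to Oxali was 0.84 (0.66 to 1.06), an interval that still allows a difference in either direction.

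Letters of known elements were searched around the summits. The IRF core was found within 100 bp of the summit at 3 of 83 regions (3.61%, beside 2.58% of all 211107 regions), namely the one at 4.52 kb of Cd274 and both named for Cd86. The GAS element was found at 1 region (1.20%, beside 6.05%), the NF-κB consensus at 3 (3.61%, beside 2.55%) and the AP-1 element at 20 (24.1%, beside 21.0%). The Cd274 start-site window printed above held none of the 4.

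The same counts were made for related genes from a list chosen with results of these data known. Around 25 other T cell ligands and their partners, which include Cd47, Pvr, Tnfsf9 and Lgals9, gained regions made up 9.39% with IFNγ, 26.5% with Oxali, 29.6% with Cispl and 29.6% with the combination. Higher regions made up 5.80%, 30.4%, 26.0% and 32.0% in that order. These shares resemble those of the whole genome given above. In Oxali, Lgals3 and Tnfsf14 had the most gained regions, with 11 and 7, of 24 and 20 regions called in any list. In Cispl, Lgals3 and Cd200 had 7 each and Tnfsf14 had 4. Around the receptors Pdcd1, Ctla4, Cd28 and Rgmb, 2, 10, 12 and 9 regions were gained, of 16, 24, 26 and 23 called in either list (12.5%, 41.7%, 46.2% and 39.1%, beside 9.65%, 28.4%, 34.4% and 34.9% of all regions). Around Cmtm6 and Cmtm4, whose products stabilise PD-L1, 1, 5, 8 and 7 were gained, of 23, 27, 30 and 28 (4.35%, 18.5%, 26.7% and 25.0%, each below the share of all regions).

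The identity of the cells was checked at start sites of marker genes. The luminal and prostate genes Krt8, Hoxb13 and Foxa1 were called in every list, while Cdh1 had no start-site region in any list and Epcam had one in IFNγ only. Of 7 leukocyte genes, 1 was called in Ctrl, 1 in IFNγ, 3 in Oxali, 4 in Cispl and 3 in Oxali + IFNγ, at levels of 2.18 to 10.7, and Cd3e, Cd79a and Itgam were called in none. The number of weakly called leukocyte genes thus moved with the platinum lists, as the regions of Cd86 did, and the part of other cells in these results was not tested.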

How the data were processed

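ATAC-seq reads mark chromatin that a transposase can enter. The authors trimmed reads with cutadapt, aligned them to mm10 with Bowtie2 2.2.8, filtered them by mapping quality with SAMtools, discarded duplicate and mitochondrial reads, merged both libraries of a condition, and ran MACS2 2.1.0 on the merged reads with no control library and a blacklist filter. The deposited fold of each peak is a ratio of pileup to local background, each plus 1. The authors' −log10 p-value is the Poisson tail for the pileup over that background. The deposited −log10 q-value is the same quantity adjusted over the list. The deposited lists end at a −log10 p of 2.00, and that of Cispl at 2.99.

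The pileup and background of each peak were solved from its fold and p, which succeeded for at least 99.999% of peaks and was tested on simulated data. Levels are these pileups divided by the most common background value of a list, which is taken as its genome background. MACS2 takes its local background from 10 kb, and at least 99.989% of local values above the genome background gave whole reads within 0.1. Regions of the lists sharing 1 bp were joined. Ratios carry exact conditional binomial intervals at 95%. No SD, p-value or test against replicates was possible. The total read number per list was not analysed here, and depth enters as the genome background. Genes came from GENCODE M21, and sequences from RefSeq GRCm38. Python 3.11.15, NumPy 2.4.6, pandas 2.3.3, SciPy 1.17.1 and Matplotlib 3.10.9 were used.

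The members, lists and rules were chosen with earlier results of these data known. All 6 members are described, with start-site regions, the whole chromosome 19 neighbourhood and regions gained, lost or past 1.5-fold by value, and other genes whose bodies overlap the windows are named where a region turns on them. Some listed regulators and marker genes are not reported here. Alternatives covered thresholds, overlap, window and scaling.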

Additional observations from a re-analysis of the deposited data

How the results depend on the processing

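The counts of gained and lost regions at the 6 genes moved with the threshold and the window. Shares of all regions under the settings below are not reported here, so the shifts are not read as particular to these genes. Taking the 100000 strongest regions of each list gave 4 gained with IFNγ, 5 with Oxali, 8 with Cispl and 9 with the combination, in place of 7, 15, 21 and 20. It gave 3 lost with Oxali, 4 with Cispl and 5 with the combination. A q-value of at most 1e-05 gave 8 gained with Oxali and 0 with IFNγ. A window of 5 kb gave 8 gained with Oxali and 3 with IFNγ, and one of 50 kb gave 25, 38 and 35 for Oxali, Cispl and the combination, with 10 lost for IFNγ and 4, 3 and 5 for those lists. With all deposited regions, 1 was lost with Cispl and 2 with Oxali + IFNγ. Counting each list before joining gave 5 lost for IFNγ and 2 each for Oxali and Cispl, and asking for 50% overlap gave 6 for IFNγ and 2 for each of the others. Scaling by shared regions moved the median log2 ratio with Oxali from 0.27 to 0.10. The Cd274 start-site ratio with Oxali + IFNγ reversed when set over local background, from a log2 of 0.52 to -0.33. In the other 76 cases the counts of gained and lost regions stayed within 1.5 times those of the report and the medians within their intervals. Among the start-site ratios, the counts past 1.5-fold and the 10 kb counts, 20 further cases moved by more than that and 103 did not. The cause was not tested.

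No paired analysis was possible because the libraries were pooled before peaks were called, and leaving out a library was not possible either. Depth limits weak regions most in the IFNγ list, which had the lowest genome background, at 9.62.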
